A study of Mus musculus with 11 samples.

Results

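Norrin-beta-catenin signaling in retinal vessels was followed through 10 genes, matched by symbol to the Ensembl identifiers of the count files: the receptor genes Fzd4, Lrp5, Lrp6, Tspan12 and Fzd6, the beta-catenin gene Ctnnb1, the nuclear factors Lef1 and Tcf7, and the target and feedback genes Axin2 and Apcdd1. The files listed 55359 genes, and all 10 members were found there and passed the filter on low counts. The samples were CD31+/CD45- vascular endothelial cells, sorted at P17 from retinas of C57BL/6 mice (C57BL/6J in the study's methods) in the oxygen-induced retinopathy (OIR) model. In this model, pups spend some days in high oxygen, which closes part of the retinal vessels, and abnormal new vessels form after their return to room air. At P12, 5 mice were injected intravitreally with 0.5 µL of the cytokine oncostatin M (OSM) at 100 ng/µL, and 6 mice with 0.5 µL PBS. All mice, the PBS controls included, went through the OIR model, and the labels name no transgene. Both retinas of 1 mouse made 1 sample. According to the study's methods, contralateral eyes received PBS, and it was not stated if this also applied to the sequenced mice, in which case a sample with OSM would hold cells of both treatments. Here each mouse was taken by the single treatment in its label. The mice belonged to 3 litters, each put through 1 OIR run. Litter 1 held OSM-treated mice 1 and 2 and PBS-treated mice 3 and 4, litter 2 held OSM-treated mice 5 and 6 and PBS-treated mice 7 and 8, and litter 3 held OSM-treated mouse 9 and PBS-treated mice 10 and 11. A litter and its OIR run cannot be told apart.

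Norrin is a secreted protein made mainly by Müller glia. On endothelial cells it binds the receptor Frizzled4 (Fzd4), which works together with the co-receptors Lrp5 or Lrp6 and with the tetraspanin Tspan12, a booster of the Norrin signal. Binding protects beta-catenin from breakdown, and beta-catenin then enters the nucleus and acts with Lef1 and Tcf7 on target genes. In the retina the pathway is known for the growth of the deep vessel layers and for the blood-retina barrier.

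Each mouse gave 26697990 to 56033479 reads counted on genes (median 32500202), and the deepest library was that of OSM-treated mouse 9. Pecam1, which encodes the sorted antigen CD31, had 29886 to 70118 reads per mouse, and the endothelial cadherin gene Cdh5 had 10122 to 20575. Ptprc, which encodes CD45, had at most 22 reads. All 12 endothelial markers were detected, with a summed level of 16800 to 21500 CPM (counts scaled to library size) in OSM-treated and 16100 to 20200 in PBS-treated samples. The 8 leukocyte and microglia markers, Ptprc among them, summed to 0.402 to 12.8 CPM in OSM-treated and 0.385 to 84.6 CPM in PBS-treated samples. Levels below are normalized counts, that is, reads after TMM scaling, set to the average library. Between genes, levels are compared only as reads per kilobase of exon, scaled to library size (RPKM).

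Ctnnb1, which encodes beta-catenin (ENSMUSG00000006932, GRCm39 chromosome 9, 120757422 to 120789579), had the highest level per length of the 10 genes, at 119 ± 22.6 RPKM (SD, n = 11 mice). This placed it above 98.6% of the genes tested. Of its exon bases, 11.7% overlap other genes in the annotation used here. Reads on such bases are left uncounted at the authors' settings if their GENCODE release holds the same overlap. The overlap was 8.28% for Tspan12, 5.47% for Tcf7, 4.93% for Fzd6 and 3.02% for Axin2. Fzd4, Lrp5, Lrp6 and Apcdd1 had none.

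Fzd6, a frizzled receptor best known from planar cell polarity (ENSMUSG00000022297, chromosome 15, 38869243 to 38901584), came next at 59.3 ± 15.4 RPKM. The Norrin receptor gene Fzd4 (ENSMUSG00000049791, chromosome 7, 89053563 to 89062342) stood at 29.3 ± 6.98 RPKM, and its booster Tspan12 (ENSMUSG00000029669, chromosome 6, 21771389 to 21852619) at 35.7 ± 6.89 RPKM. The co-receptor genes were far lower than the receptor. Lrp6 (ENSMUSG00000030201, chromosome 6, 134423439 to 134544212) had 2.58 ± 0.805 RPKM and Lrp5 (ENSMUSG00000024913, chromosome 19, 3634821 to 3736643) had 1.89 ± 0.609 RPKM, close to the middle of the genes tested (percentiles 54.8 and 49.4). Fzd6 was above Fzd4 in every mouse (38.4 to 89.2 against 20.5 to 42.6 RPKM), so the frizzled gene that is not known as the Norrin receptor had the higher level in these cells.

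Of the nuclear factors, Tcf7 (ENSMUSG00000000782, chromosome 11, 52143107 to 52174619) had 25.9 ± 4.07 RPKM and Lef1 (ENSMUSG00000027985, chromosome 3, 130903919 to 131018005) had 12.3 ± 3.09 RPKM, and Tcf7 was above Lef1 in 11 of 11 mice. This order depended on the length used. With the longest annotated transcript in place of all exons, Lef1 stood at 31.3 RPKM and Tcf7 at 27.2 RPKM. In addition, 16.3% of the exon bases of Lef1 overlap an antisense gene.

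The target and feedback genes lay far apart. Apcdd1, which encodes a membrane-bound inhibitor of Wnt signaling (ENSMUSG00000071847, chromosome 18, 63055302 to 63094250), had 28.6 ± 5.76 RPKM, more than 92.2% of the genes tested. Axin2, which encodes a scaffold of the beta-catenin destruction complex and is widely used as a readout of the pathway (ENSMUSG00000000142, chromosome 11, 108811169 to 108841609), had 0.343 ± 0.156 RPKM. It was the lowest member in every mouse, with 21 to 122 reads. In the order of all 10 genes, 4 pairs of neighbours did not differ beyond their spread. The mean log2 ratio within a mouse was 0.30 for Tspan12 over Fzd4 (SD 0.32), 0.033 for Fzd4 over Apcdd1 (SD 0.44), 0.12 for Apcdd1 over Tcf7 (SD 0.37) and 0.435 for Lrp6 over Lrp5 (SD 0.80). With the longest annotated transcript as length, all 4 ratios passed their spread, at 0.80, -0.535, 0.631 and 0.96, and Fzd4 stood below Apcdd1 and Lef1, at rank 6. The order was read from these data and was not tested.

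**Figure D1:**
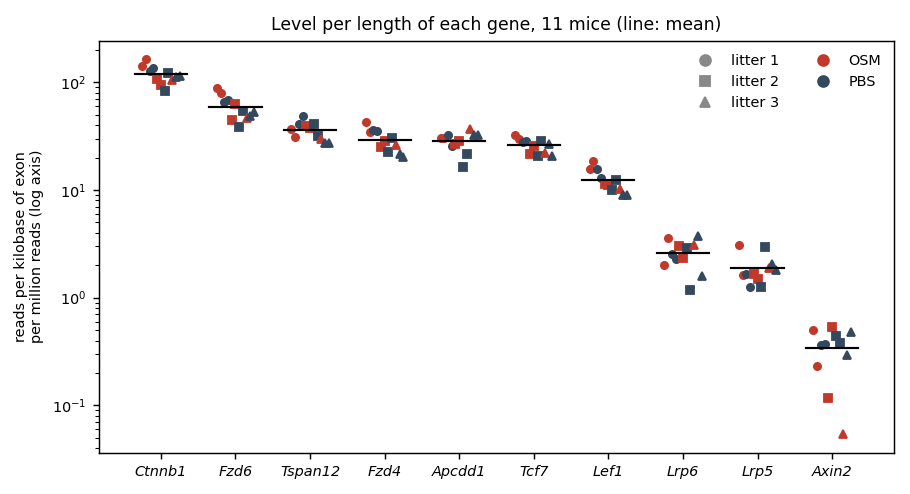
Level per length of the 10 genes in each of the 11 mice (vertical log axis, RPKM), with symbols for litters, colors for treatments and a line at the mean. The genes span 119 RPKM for Ctnnb1 to 0.343 RPKM for Axin2, and Axin2 has the widest spread between mice.

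To show the DNA in front of a nuclear factor gene and of a target gene of the pathway, the 250 bases before the start of the Ensembl canonical transcript were read from GRCm39 for Lef1 and Axin2. Capitals mark a match to the Lef/Tcf motif, searched on both strands as CTTTG followed by AA, AT, TA or TT. Axin2 (chr11:108811388-108811637, plus strand) holds 1 match, 22 bases before the start. This window lies within the annotated span of the gene, which starts at 108811169. Lef1 (chr3:130903669-130903918, plus strand) holds none.
Axin2: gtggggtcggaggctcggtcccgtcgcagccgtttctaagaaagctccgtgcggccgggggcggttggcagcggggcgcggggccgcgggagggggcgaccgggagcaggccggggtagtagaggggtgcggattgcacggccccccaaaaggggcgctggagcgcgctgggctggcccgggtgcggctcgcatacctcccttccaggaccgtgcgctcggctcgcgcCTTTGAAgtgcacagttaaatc
Lef1: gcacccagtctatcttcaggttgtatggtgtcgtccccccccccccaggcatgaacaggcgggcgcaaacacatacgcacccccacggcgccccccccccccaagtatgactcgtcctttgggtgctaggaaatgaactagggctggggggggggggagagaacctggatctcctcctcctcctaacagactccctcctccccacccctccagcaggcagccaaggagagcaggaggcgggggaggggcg

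Of the 10 genes, 2 had a match in this window, Axin2 and Lrp6 (106 bases before its start), against 3184 of 21770 protein-coding genes (14.6%). A match describes letters only.

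For OSM against PBS, the question was whether the pathway differed in retinal endothelial cells 5 days after the injection. No member passed an adjusted p of 0.05 in edgeR's quasi-likelihood test with litter as a term (0 of 10, against 0 of 17050 genes tested, 0%). DESeq2's Wald test also called 0 members, where it called 0.763% of the genes it tested. At an unadjusted p under 0.05 there was 1 member, Apcdd1, which was higher after OSM, where 846 of all genes tested (4.96%) had such a p and 2.25% were higher with it. The fitted value was above 0 in 7 members and below 0 in 3 (48.4% and 51.6% of all genes tested), and its median was 0.11 on the log2 scale, against -0.0137 over all genes tested. In each of the 10 genes the values of both groups overlapped, and the groups did not overlap in 0.405% of all genes tested. In bulk samples, fewer cells of a type and less RNA per cell cannot be told apart.

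Fzd4 had 9935, 8019, 5819, 6655 and 6174 normalized counts in OSM-treated mice 1, 2, 5, 6 and 9, and 4775 to 8355 (median 6162) in PBS-treated mice. The values of both groups were high in litter 1 and low in litters 2 and 3. The means were 7320 ± 1683 (SD, n = 5) with OSM and 6450 ± 1622 (SD, n = 6) with PBS. The log2 fold change was 0.13 ± 0.11 (SE), with an unadjusted p of 0.23. Without OSM-treated mouse 9 it was 0.0652, and without PBS-treated mouse 8 it was 0.216. It was above 0 in each litter, at 0.11, 0.030 and 0.33, as was the case for 11.1% of all genes tested, and for Lrp6 and Apcdd1 among the members.

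The other receptor genes showed no called difference either. Fzd6 had 20850, 18410, 10450, 14720 and 11000 normalized counts in the OSM-treated mice in the same order, and 8970 to 16010 (median 12600) with PBS. Both OSM-treated mice of litter 1 were above all PBS-treated mice, and the other 3 lay among them (log2 fold change 0.17 ± 0.13, SE). Tspan12 had 5383, 4575, 5727, 5526 and 4349 normalized counts with OSM and 3952 to 7160 (median 5283) with PBS, so the OSM-treated values lay within the PBS range. Its log2 fold change was -0.084 ± 0.12 (SE), with -0.40 in litter 1 and 0.096 and 0.13 in litters 2 and 3.

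The co-receptor genes were read less precisely. Lrp5 had 1028, 547, 560, 498 and 630 normalized counts in the OSM-treated mice and 424 to 994 (median 579) with PBS. OSM-treated mouse 1 stood above the other OSM-treated samples, and the log2 fold change of 0.087 ± 0.32 (SE) became -0.144 without it. Lrp6 had 1047, 1903, 1600, 1223 and 1617 normalized counts with OSM, and 625 to 1984 (median 1264) with PBS, with PBS-treated mouse 8 the lowest of all. Its log2 fold change was 0.28 ± 0.29 (SE), and it was 0.114 without PBS-treated mouse 8, 0.149 without OSM-treated mouse 2 and 0.47 without PBS-treated mouse 7. Within litters 1, 2 and 3, the log2 difference was 0.61, -0.29 and -0.037 for Lrp5 and 0.16, 0.50 and 0.32 for Lrp6.

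Ctnnb1 had 39440, 45390, 30060, 26070 and 29030 normalized counts in the OSM-treated mice, and 23350 to 37690 (median 33070) with PBS. The OSM-treated samples held the highest values and, outside litter 1, lay among the PBS-treated samples. Its log2 fold change was 0.037 ± 0.11 (SE), with a p of 0.731. Lef1 had 4974, 5909, 3599, 3504 and 3219 normalized counts with OSM and 2845 to 4935 (median 3592) with PBS, a log2 fold change of 0.14 ± 0.11 (SE). Tcf7 had 4266, 3883, 2814, 3368 and 2878 normalized counts with OSM and 2716 to 3759 (median 3585) with PBS. Of the members it had the log2 fold change closest to 0, at -0.0013 ± 0.12 (SE).

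Axin2 varied most. The OSM-treated mice 1, 2, 5, 6 and 9 had 119, 54.3, 27.8, 126 and 12.8 normalized counts, and the PBS-treated mice 69.6 to 114 (median 88.2). The OSM-treated samples held both the 3 lowest and the 2 highest values, so they lay on both sides of the PBS range. The means were 68.1 ± 52.1 (SD, n = 5) and 91.7 ± 15.4 (SD, n = 6), and the highest mouse was 9.86-fold above the lowest. The log2 fold change was -0.67 ± 0.91 (SE), with an unadjusted p of 0.477. It was below 0 in each litter, at -0.077, -0.50 and -1.84, as was the case for 12% of all genes tested. The value of litter 3 rests on OSM-treated mouse 9 alone, where 21 reads were counted, and the log2 fold change without this mouse was -0.165.

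Apcdd1 had 16790, 16910, 14920, 15590 and 20310 normalized counts with OSM, and 9086 to 18020 (median 15960) with PBS. Mouse 9 was the highest of all, and PBS-treated mice 7 and 8 of litter 2 were the lowest. The means were 16900 ± 2079 (SD, n = 5) and 14800 ± 3786 (SD, n = 6). The log2 fold change was 0.28 ± 0.11 (SE), with an unadjusted p of 0.0275 and an adjusted p of 0.955. The exact permutation test over all treatment assignments within litters gave a p of 0.0648 (two-sided, smallest possible p 0.00926). Litters 1, 2 and 3 gave differences of 0.085, 0.56 and 0.18, so the value was above 0 in 3 of 3 litters and largest where both PBS-treated mice were low. Whether the difference of a member depended on the litter was tested with an interaction term, which called 0 of 10 members (0% of all genes). No member had an unadjusted interaction p under 0.05, against 6.42% of all genes tested. This interaction was not tested with DESeq2.

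**Figure D2:**
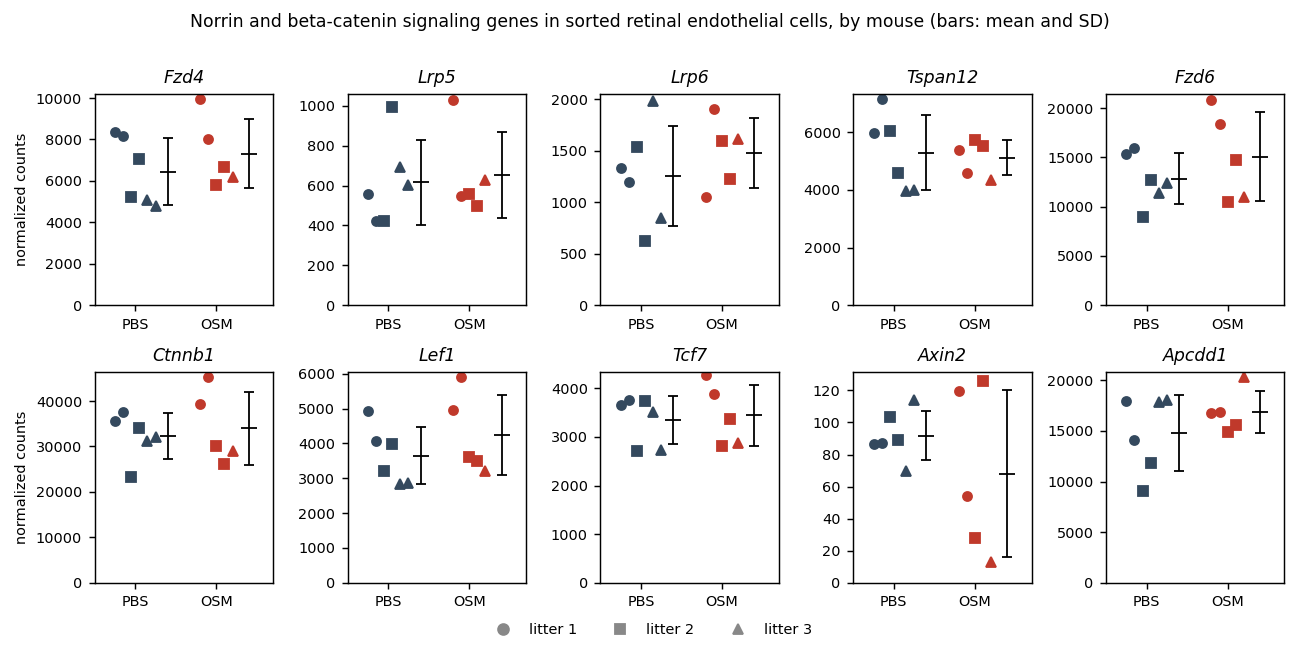
Normalized counts of the 10 genes in the 6 PBS-treated and the 5 OSM-treated mice, 1 panel per gene, with symbols for litters and bars for the mean and SD of each group. The groups overlap in every panel, and the OSM-treated samples of Axin2 reach from 12.8 to 126.

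**Figure D3:**
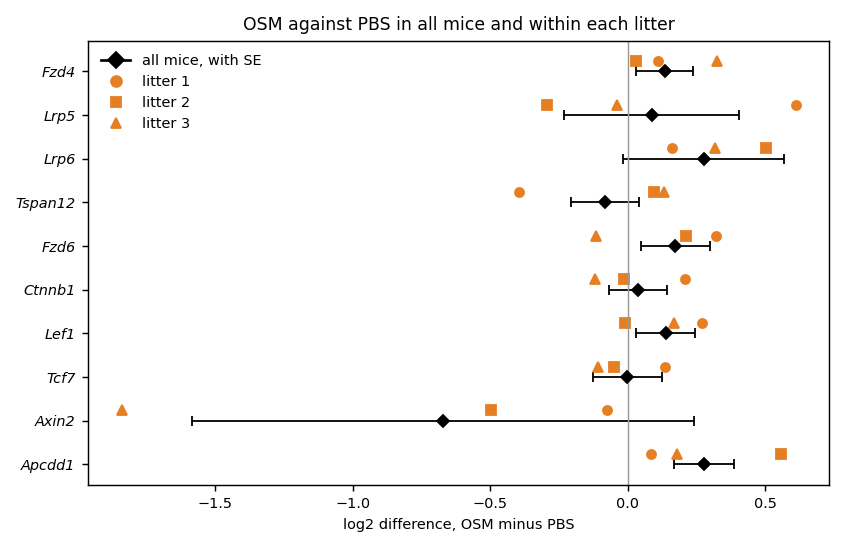
Log2 difference between OSM and PBS for each gene in the fit over all mice (diamonds, with SE) and within each litter (symbols). Apcdd1 lies at 0.28 with an SE of 0.11, and Axin2 has the widest interval.

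The litter term was read in the same fit. An unadjusted litter p under 0.05 was found for 6 of 10 members, against 10.3% of all genes tested and 17.5% of the genes with a mean of at least 500 normalized counts, as 9 of the members had. The unadjusted edgeR p was 0.000717 for Lef1, 0.000849 for Fzd4, 0.0029 for Fzd6, 0.00328 for Apcdd1, 0.0066 for Ctnnb1 and 0.0215 for Tspan12. After adjustment 0 of 10 were called (adjusted p of 0.109 for Lef1), where 0.0176% of all genes were. With DESeq2's likelihood ratio test, Fzd4, Fzd6, Ctnnb1, Lef1 and Apcdd1 were called, as were 7.11% of the genes it tested. Without the filter on low counts, edgeR called the same 5 genes, with 2.16% of all genes tested.

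Litter 1 was the highest of the 3 litters in 7 of 10 members. Lef1 had 4975 ± 747 normalized counts in litter 1 (SD, n = 4), 3572 ± 314 in litter 2 (n = 4) and 2980 ± 207 in litter 3 (n = 3). Every mouse of litter 1, with OSM or PBS, was above every mouse of the other litters. The same held for Fzd4, with 8621 ± 886, 6199 ± 822 and 5340 ± 737 normalized counts, for Fzd6, with 17660 ± 2499, 11730 ± 2532 and 11630 ± 735, and for Ctnnb1, with 39510 ± 4232, 28410 ± 4722 and 30700 ± 1518. Such a separation of litter 1 from all other mice was found for 4 of 10 members, against 1.52% of all genes tested and 2.81% of those with at least 500 normalized counts. The log2 difference between litters 1 and 3 was 0.74 for Lef1, 0.69 for Fzd4, 0.60 for Fzd6 and 0.36 for Ctnnb1.

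Not all members followed this order. Tspan12 was similar in litters 1 and 2 (5773 ± 1088 and 5470 ± 620 normalized counts, SD, n = 4 each) and lower in litter 3 (4095 ± 220, n = 3). Apcdd1 was highest in litter 3 (18730 ± 1369) and lowest in litter 2 (12850 ± 3001), so this target gene did not move with the receptor gene. Lrp5 had 639, 619 and 642 normalized counts in litters 1, 2 and 3, and Axin2 had 86.9, 86.6 and 65.6.

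Of 12 endothelial markers, 0 were called for the litter in edgeR's test and 4 had an unadjusted litter p under 0.05 (17.5% of the genes with at least 500 normalized counts). Litter 1 was the highest in 8, and in 2 it was above all other mice (2.81%). Pecam1 had 55540 ± 4706 normalized counts in litter 1 (SD, n = 4), 37450 ± 4265 in litter 2 (n = 4) and 42330 ± 1549 in litter 3 (n = 3), whereas Cldn5 had 152700, 168000 and 159000. Their summed level was 19220 to 21490 CPM in litter 1 and 16120 to 20080 in the other mice, and the part of this in the litter differences of the members was not tested. Rod genes were summed to 384 to 479 CPM in litter 1 and to 597.6 to 4852 CPM in litter 2, with the highest sum in OSM-treated mouse 5. In litter 3 the sums were 179.1 CPM in OSM-treated mouse 9, and 1360 and 365.4 CPM in PBS-treated mice 10 and 11.

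**Figure D4:**
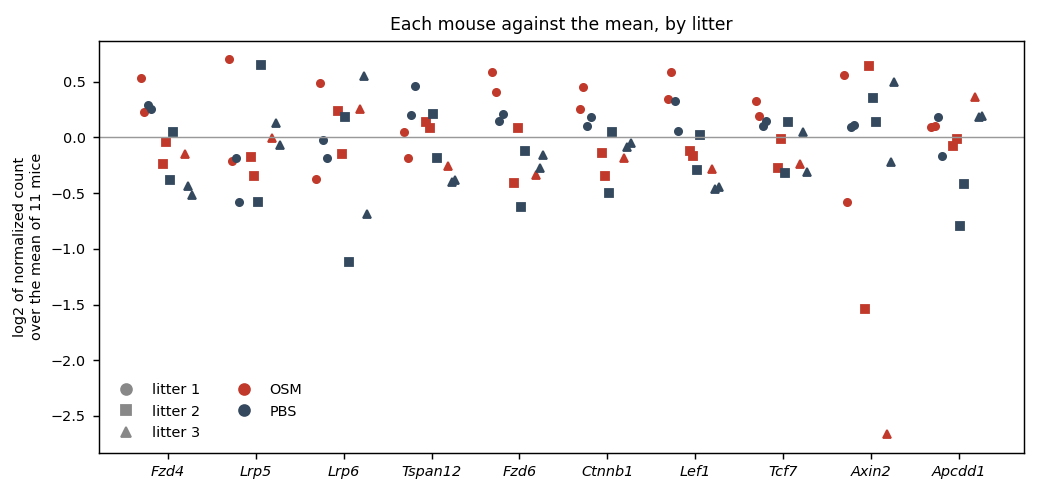
Log2 ratio of each mouse's normalized count to the mean of the 11 mice, for each gene, with litters side by side and colors for treatments. For Fzd4, Fzd6, Ctnnb1 and Lef1 the 4 mice of litter 1 lie above all others, whereas Apcdd1 is lowest in litter 2.

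The genes with the pattern most like Fzd4 across the 11 mice were Dhrs3, Ei24 and Slc2a1. Likeness was measured as the SD of the log2 ratio to Fzd4, which was 0.113, 0.114 and 0.136, over 8870 genes with a mean of at least 10 CPM (median SD 0.506). Slc2a1, which encodes the glucose transporter Glut1 of barrier vessels, had 170200 ± 10640 normalized counts in litter 1 (SD, n = 4), 117600 ± 14560 in litter 2 (n = 4) and 104100 ± 7270 in litter 3 (n = 3). Since it was picked for its likeness to Fzd4, a shared order of litters follows from the choice. Of the 17 listed target genes of retinal endothelium, 5 had an unadjusted litter p under 0.05 in edgeR's test. This was the case for 15 of the 83 other pathway genes tested, these 17 included. The shares were 10.3% of all genes tested and 17.5% of those with at least 500 normalized counts. Of other target genes of retinal endothelium, named after their values were seen, Slc7a5 was highest in litter 1 (131000, 74090 and 81480). Slc7a1 was lowest there (12680, 16210 and 17370). For Axin2 no gene came as close, and with 21 to 122 reads per mouse, counting noise widens every ratio to it. Its nearest genes, Socs5, Tmem199 and Hcfc2, had SDs of 0.376, 0.379 and 0.387 (median 0.808), where the log2 level of Axin2 itself had an SD of 0.713.

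The other genes of the pathway were read from a list of 112 genes in 7 roles, of which 83 passed the filter on low counts. None was called for OSM against PBS (0 of 83). At an unadjusted p under 0.05, 4 were lower (2.71% of all genes tested were) and 1 was higher (2.25%), and the median log2 fold change was -0.0107.

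Of the 24 ligands, 6 were tested and 3 had no read in any mouse. Ndp, which encodes Norrin, had reads in 5 of 11 mice. OSM-treated mice 1, 5 and 6 had 83, 110 and 3 reads, PBS-treated mice 8 and 11 had 63 and 6, and the other 6 had 0, so it was detected in both treatments and without a common level in either. Wnt5b, a ligand of mainly beta-catenin-independent signaling, had the highest level per length of the ligands tested at 1.84 ± 0.81 RPKM (log2 fold change -0.017 ± 0.39, SE), followed by Ndp at 0.385 and Wnt5a at 0.335 RPKM. The 2 ligands with an unadjusted p under 0.05, Wnt9a and Rspo2, named after their values were seen, had reads in 9 and 3 mice, with 104 and 67 reads at most.

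Of the 16 other receptor genes, 15 were tested. The highest were Adgra2, a co-activator of Wnt7 signaling in brain vessels, at 7.22 ± 1.73 RPKM, the Wnt receptor Ryk at 6.22 ± 0.896 and Fzd1 at 5.63 ± 2.97 RPKM. Fzd4 and Fzd6 were therefore the only frizzled genes above this level in the list. Fzd8, singled out after its values were seen, had 685 ± 219 normalized counts with OSM (SD, n = 5) and 439 ± 129 with PBS (SD, n = 6), a log2 fold change of 0.68 ± 0.30 (SE) with an unadjusted p of 0.0475. Lgr6, also named after its values were seen and lower after OSM, had reads in 5 mice.

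Extracellular inhibitors were scarce, and 6 of 14 were tested. Kremen1, a receptor for Dickkopf proteins, had 3.41 ± 0.737 RPKM, Dkk2 had 2.61 ± 1.40 and Dkk3 2.52 ± 3.18. Dkk2 had 266 ± 216 normalized counts with OSM (SD, n = 5) and 470 ± 146 with PBS (SD, n = 6), with a log2 fold change of -1.11 ± 0.82 (SE). The OSM-treated values reached from 24.96 to 430.5, and the groups overlapped. Within litters 1, 2 and 3 the log2 difference was 0.19, -1.73 and -3.685, and that of litter 3 rests on OSM-treated mouse 9 alone. Of the 6 inhibitors, 5 had a fitted value below 0, as had 51.6% of all genes tested.

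All 18 cytoplasmic components and all 14 nuclear partners were tested, with median log2 fold changes of -0.0624 and -0.0264. Csnk1a1, a kinase that starts the phosphorylation of beta-catenin, had 11750 ± 494 normalized counts with OSM (SD, n = 5) and 11810 ± 945 with PBS (SD, n = 6). It had 28.8 ± 1.81 RPKM, the tankyrase gene Tnks2 15.8 ± 2.75 and the kinase gene Csnk1d 14.7 ± 2.86 RPKM. The nuclear partners with the highest levels were Ctnnbip1, which blocks the binding of beta-catenin to TCF factors (23.8 ± 3.30 RPKM), Pygo2 (18.4 ± 5.02) and Cby1 (10.6 ± 2.15). Their log2 fold changes were 0.072 ± 0.11, -0.082 ± 0.22 and 0.060 ± 0.13 (SE).

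Of 9 general target genes, 7 were tested, 4 with fitted values below 0 and 3 above (51.6% and 48.4% of all genes tested). The highest were the receptor gene Tnfrsf19 at 24.6 ± 7.10 RPKM, Myc at 16.97 ± 5.40 and the cyclin gene Ccnd1 at 14.7 ± 3.37 RPKM, with log2 fold changes of 0.21 ± 0.23, 0.0050 ± 0.28 and -0.14 ± 0.20 (SE). Targets that are widely read beside Axin2, named after their values were seen, ranged from Nkd1 at 8.87 ± 3.29 RPKM to Notum, which had reads in 2 mice, and Rnf43, with 1 read in all.

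The 17 target genes of retinal endothelium were all tested, and 13 had fitted values above 0 (48.4% of all genes tested had). Their median log2 fold change was 0.0936. Cldn5, the main claudin of barrier vessels, had 3317 ± 413 RPKM, Slc2a1 832.5 ± 198.5, and the amino acid transporter gene Slc7a5 740 ± 226 RPKM. Their log2 fold changes were 0.16 ± 0.095, 0.085 ± 0.078 and 0.033 ± 0.11 (SE). Plvap, which encodes the diaphragm protein of leaky vessels and is known to be kept low by the pathway, was singled out after its values were seen. It had 2885, 3734, 3549, 3458 and 1591 normalized counts with OSM, and 2580 to 8077 (median 4891) with PBS. Mouse 9 was the lowest, and PBS-treated mouse 4 lay among the OSM-treated samples. The log2 fold change was -0.85 ± 0.31 (SE), with an unadjusted p of 0.0205 and an adjusted p of 0.955, and it was -0.47, -0.42 and -1.81 in litters 1, 2 and 3. Without OSM-treated mouse 9 it was -0.562, and without PBS-treated mouse 3 it was -0.582. Without the filter on low counts Plvap passed the threshold (adjusted p of 0.000285, among 0.225% of all genes tested), and DESeq2 gave an adjusted p of 0.274.

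**Figure D5:**
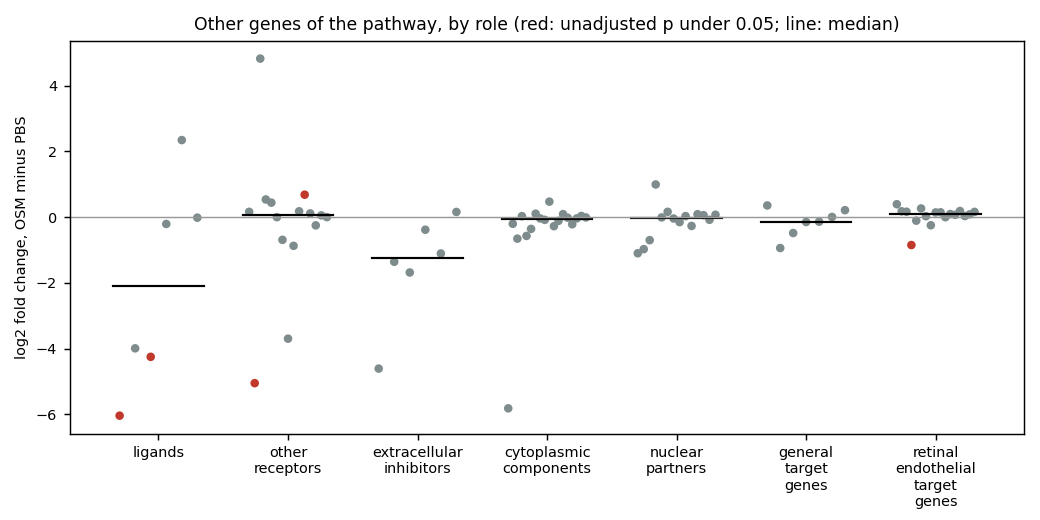
Log2 fold change between OSM and PBS of the 83 other pathway genes tested, by role, ordered by level per length within a role (highest at the right), with a line at the median and red points for an unadjusted p under 0.05. The widest values include the ligand Rspo2 at -6.04, the cytoplasmic component Apc2 at -5.82 and the receptor Lgr6 at -5.05, each with reads in at most 5 mice, and the retinal endothelial target genes lie near 0 except Plvap at -0.85.

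No marker of any cell type was called for OSM against PBS in edgeR's test. All 10 mural cell markers were detected and had fitted values below 0 with OSM, as had 51.6% of all genes tested. Of these markers, 2 had an unadjusted p under 0.05 (4.96% of all genes tested had such a p). Their summed level was 406 to 873 CPM (median 493) with OSM and 325 to 1750 CPM (median 952) with PBS. PBS-treated mouse 8 had the lowest sum of all mice. Of 8 erythrocyte and platelet markers, all were detected and 7 tested, with 4 at an unadjusted p under 0.05, and their sum was 322 to 1040 CPM (median 551) with OSM and 118 to 553 (median 247) with PBS. All 8 Müller glia markers were detected, with sums of 203 to 378 CPM (median 290) with OSM and 182 to 318 (median 266) with PBS. Of 10 markers of other retinal neurons, Slc17a6 was at 0 in all mice. All 8 leukocyte and microglia markers were detected, with the highest sums in PBS-treated mice 4 and 3 of litter 1 (84.56 and 29.27 CPM). OSM-treated mice 1 and 2 of this litter had 0.4021 and 0.435 CPM. The part of these cells in the values of Apcdd1, Axin2, Plvap and Ndp was not tested. Ndp was highest in OSM-treated mouse 5, which had a rod sum of 4852 CPM and a Müller glia sum of 290.3 CPM. OSM-treated mouse 1, with 83 reads of Ndp, had 401 and 294.5 CPM in the same order. OSM-treated mouse 6, with 3 reads, had 1620 and 252.1 CPM. PBS-treated mice 8 and 11, which also had reads of Ndp, had 597.6 and 312.6 CPM, and 365.4 and 318.5 CPM. Among the mice without a read of Ndp, the Müller glia sum reached from 182 CPM in PBS-treated mouse 10 to 377.5 CPM in OSM-treated mouse 2.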

How the data were processed

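Sorted cells from 11 mice gave RNA for poly(A)-primed cDNA, which was PCR-amplified and read as single reads, with no molecular identifiers. The authors used STAR for alignment to GRCm39 and featureCounts (standard settings, GENCODE genes), and deposited raw whole-number counts for each mouse. Reads on several places or several genes were thus left out, and strand was not used. The in vitro part of the study was not used here.

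Symbols, positions and exon lengths came from GENCODE vM39, which held 54749 of the 55359 genes. Counts were compared with edgeR 4.0.16 in R 4.3.3, using TMM scaling, the filterByExpr function at a count minimum of 10 (17050 genes retained), a robust quasi-likelihood fit with litter and treatment as terms, and Benjamini-Hochberg adjustment over all genes tested, with a threshold of 0.05. A gene is called when its adjusted p is under 0.05. Standard errors came from the log2 fold change and the F statistic. Values within a litter are differences of mean log2 CPM with a pseudocount of 0.5. RPKM used the union of annotated exons. DESeq2 1.42.0 was an alternative, since the study used it. No libraries were copies of one another (lowest chi-square per gene over 55 pairs, 67.6). Depth was 26697990 to 56033479 reads, and since PCR copies are counted, the spread between mice was taken as the error. The fit for OSM against PBS was tested on simulated data with the observed spread between mice, with changes set in genes drawn from all genes tested. It called 20.7% of the genes changed 2-fold and 52.7% of those changed 4-fold. These shares describe all genes tested, whose median coefficient of variation between mice (SD over mean) was 45.1%. Of the members, Axin2 had 45.5%, and the others had 15.7% (Tcf7) to 32.2% (Lrp5). The shares were thus not measured for the members, and the SE of each member gives the precision of its own value. A member that was not called is not shown to be unchanged.

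The members and lists were chosen with earlier results of these data known. Named genes were the members, the 3 genes of each role with the highest RPKM among those tested, Ndp, Pecam1, Cdh5 and Ptprc, and the 3 genes with the lowest SD of the log2 ratio to Fzd4 and to Axin2. Other settings tried were a fit with no litter term, size factors of DESeq2, no filter on low counts, at least 10 counts in every mouse, libraries thinned to the smallest, no robust estimation, DESeq2, and leaving out each mouse or litter. The headers inside the files of mice 10 and 11 carry other mouse numbers of the same group, and the assignment recorded for each file was used.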

Additional observations from a re-analysis of the deposited data

Results flagged for a closer look

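In 62 groups of 5 or 6 mice, a mouse was marked where its gap to the nearest other mouse, divided by the range of the group, passed Dixon's 95% critical value. Chance marks about 1 in 20 groups, and 5 were marked. Lrp5 had 1028 normalized counts in OSM-treated mouse 1, where the next OSM-treated sample had 629.6. Tnks2 had 4535 normalized counts in OSM-treated mouse 5, and the nearest OSM-treated sample had 5813. Dkk3, an extracellular inhibitor, had 2352 normalized counts in OSM-treated mouse 2 and at most 475.8 in the other OSM-treated samples. Ndp had 61.6 normalized counts in PBS-treated mouse 8 and at most 6.41 in the other PBS-treated samples. Ryk had 2154 normalized counts in OSM-treated mouse 2, and the nearest OSM-treated sample had 3019.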

How the results depend on the processing

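For OSM against PBS, 0 members were called under each of the 21 alternatives. Over all genes, 0 were called as reported, 65 without the filter on low counts and 168 with DESeq2's Wald test, and among the other pathway genes 1 (Plvap) was called without the filter. For the litter difference, 5 members were called without the filter and 5 with DESeq2's likelihood ratio test, and 0 under every other alternative. Fzd4, Lrp6, Fzd6, Lef1, Axin2 and Apcdd1 kept their sign under all alternatives. With each mouse left out in turn, Fzd4 ranged from 0.0652 to 0.216, Lrp6 from 0.114 to 0.47, Fzd6 from 0.0909 to 0.265, Lef1 from 0.082 to 0.207, Axin2 from -1.24 to -0.165, Apcdd1 from 0.187 to 0.36, Tspan12 from -0.162 to -0.0033 and Plvap from -1.06 to -0.562. The sign turned without litter 1 for Lrp5 (-0.268), Tspan12 (0.102) and Ctnnb1 (-0.0694), and for Tcf7 with no litter term (0.0379), without litter 2 (0.0316), without litter 3 (0.0345) and in the exact permutation test within litters (0.00546). In the same way, Lrp5 ranged from -0.144 to 0.378, Ctnnb1 from -0.0263 to 0.134 and Tcf7 from -0.0552 to 0.0794. The cause was not tested. With the longest transcript as length, levels were 197 RPKM for Ctnnb1, 91.4 for Fzd6, 50.8 for Tspan12, 42.5 for Apcdd1, 31.3 for Lef1 and 4.10 for Lrp6. No paired analysis was possible because no mouse number is shared between treatments. Litter 3 holds 1 OSM-treated mouse, and Axin2 had 21 to 122 reads per mouse.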
